A study of Homo sapiens with 23 samples.

Results

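The collagen gene family was described here as every probe of the array whose gene symbol is COL, a number, A and a number, and whose signal was detected on 3 or more arrays. The array annotation holds 47 such probes for 34 genes, among 47323 probes in all, and 39 probes of 30 genes passed the detection rule. The cells were CCL-75, an established line of human lung fibroblasts, and their RNA was hybridised to 23 single-channel Illumina bead arrays. Pre_Ab_IL13 cells (4 arrays) had TNF and IL-17 for 72 hours with an antibody that neutralises IL-13Ra2 in the last 1 hour, then a wash and IL-13 for 20 hours, and Pre_Ab_only cells (4 arrays) had the same without IL-13. Pre_IL13 cells (4 arrays) had TNF and IL-17 followed by IL-13, and Pre_only cells (3 arrays) had TNF and IL-17 alone. IL13 cells (4 arrays) had IL-13 for 20 hours without pretreatment, and Control cells (4 arrays) had medium alone. Each group holds passage 6 and passage 8 of the line, with experiments A and B in each passage, except that Pre_only holds only experiment B of passage 8. Arrays are named by passage and experiment, and values of a group are listed in the order P6-A, P6-B, P8-A, P8-B. All groups are passages of 1 cell line, and the labels call A and B technical replicates where the design text calls them independent experiments, so p-values measure only the spread between these samples.

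Collagens are secreted proteins of the extracellular matrix built from chains that wind into a triple helix. Their classes differ in what they assemble into: type I, III and V form fibrils, type IV and VIII form sheet-like networks, type VI forms beaded filaments, type VII forms the fibrils that anchor a basement membrane, and FACIT collagens decorate fibrils. Fibroblasts are the main source of interstitial collagen in the lung, and IL-13, TNF and IL-17 are cytokines known to act on them. The study asked whether TNF and IL-17 block the response to IL-13 by raising IL-13Ra2, which is known as a decoy receptor.

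The number of probes detected ran from 17818 to 20167 over the arrays, and the median intensity from 93.4 to 106. Beads were least even on both passage 6 arrays of IL13: the median standard error within a probe was 3.34% and 3.64% of its mean, against 2.83% to 3.13% on the other arrays. Level means log2 normalised intensity throughout, and the levels of different probes cannot be set against each other. All 12 fibroblast markers were detected on all 23 arrays, and their summed level ran from 15.69 to 16.02 over the pretreated groups and from 15.60 to 15.91 over IL13 and Control. COL1A1, COL1A2 and COL3A1 are among the 12, and the other 9 markers summed to 15.06 to 15.45 over the pretreated groups and to 15.19 to 15.40 over IL13 and Control. All 5 smooth muscle markers on the array were detected everywhere too, at a summed level of 13.18 to 13.60 over the pretreated groups against 13.82 to 14.36 over IL13 and Control. CD14 and CD68, the 2 leukocyte markers measured here, were detected on all arrays at a summed level of 11.04 to 11.52 over the pretreated groups against 9.42 to 10.47 over IL13 and Control. Of 5 epithelial markers only KRT19 was detected on all arrays, and the summed level of the 5 was 7.36 to 8.11 over the pretreated groups against 8.87 to 9.81 over IL13 and Control. Of 3 endothelial markers only TEK was detected everywhere, and of 3 chondrocyte markers only SOX9, with COL2A1 on 1 array. IL13RA2 itself was higher in Pre_only than in Control by a log2 change of 3.85 ± 0.15 (SE, adjusted p = 2.04e-19). These are levels in bulk RNA, in which fewer cells of a type and less RNA per cell cannot be told apart.

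Of the 39 collagen probes, 24 (18 genes) were detected on all 23 arrays and 15 on 3 to 22 arrays. COL5A3, detected on 3 arrays, lies just inside the detection rule, and 2 probes of COL11A1 and 1 of COL4A3, each detected on 2 arrays, lie just outside it. Fibril-forming collagens gave 10 of the tested probes (9 genes), network collagens 11 (7 genes), type VI 7 (4 genes) and FACIT collagens 6 (5 genes). The transmembrane collagens COL13A1 and COL23A1, the multiplexins COL15A1 and COL18A1, which lie at basement membranes, and COL7A1 make up the rest.

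Pretreatment with TNF and IL-17 moved members of the family in both directions. Comparing Pre_only with Control, 12 of the 39 probes rose and 8 fell at an adjusted p under 0.05, where 9.01% of all 24096 tested probes rose, 9.63% fell and 18.6% were called in either direction. COL7A1, COL3A1 and COL16A1 led the rises and COL15A1, COL8A2 and COL13A1 the falls. The median log2 change of the 39 probes was -0.04 and that of all tested probes -0.01, with 18 collagen probes above 0 and 21 below. Of the 24 probes detected on every array 16 were called, against 26% of the 13708 probes of the whole array detected on every array, and of the other 15 collagen probes 4 were called. In Pre_IL13 against IL13 the count was also 16 of those 24, against 29.2% of the probes detected on every array. The detection rule fixed the direction of COL22A1 and COL11A1, which were detected only with or only without pretreatment; among the 31 probes detected on 3 or more arrays both with and without pretreatment, 11 rose and 7 fell. By class, 5 fibril-forming probes rose and 1 fell, 4 network probes rose and 2 fell, 2 FACIT probes rose and 0 fell, and 0 type VI probes rose and 2 fell. The fibril-forming fall is COL11A1 and the FACIT rises include COL22A1, whose directions the rule fixed. These counts are of probes and not of genes: both network falls are of COL8A2 and both type VI falls of COL6A3. COL8A1 and COL1A2 each gave more than 1 of the rises.

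**Figure D1:**
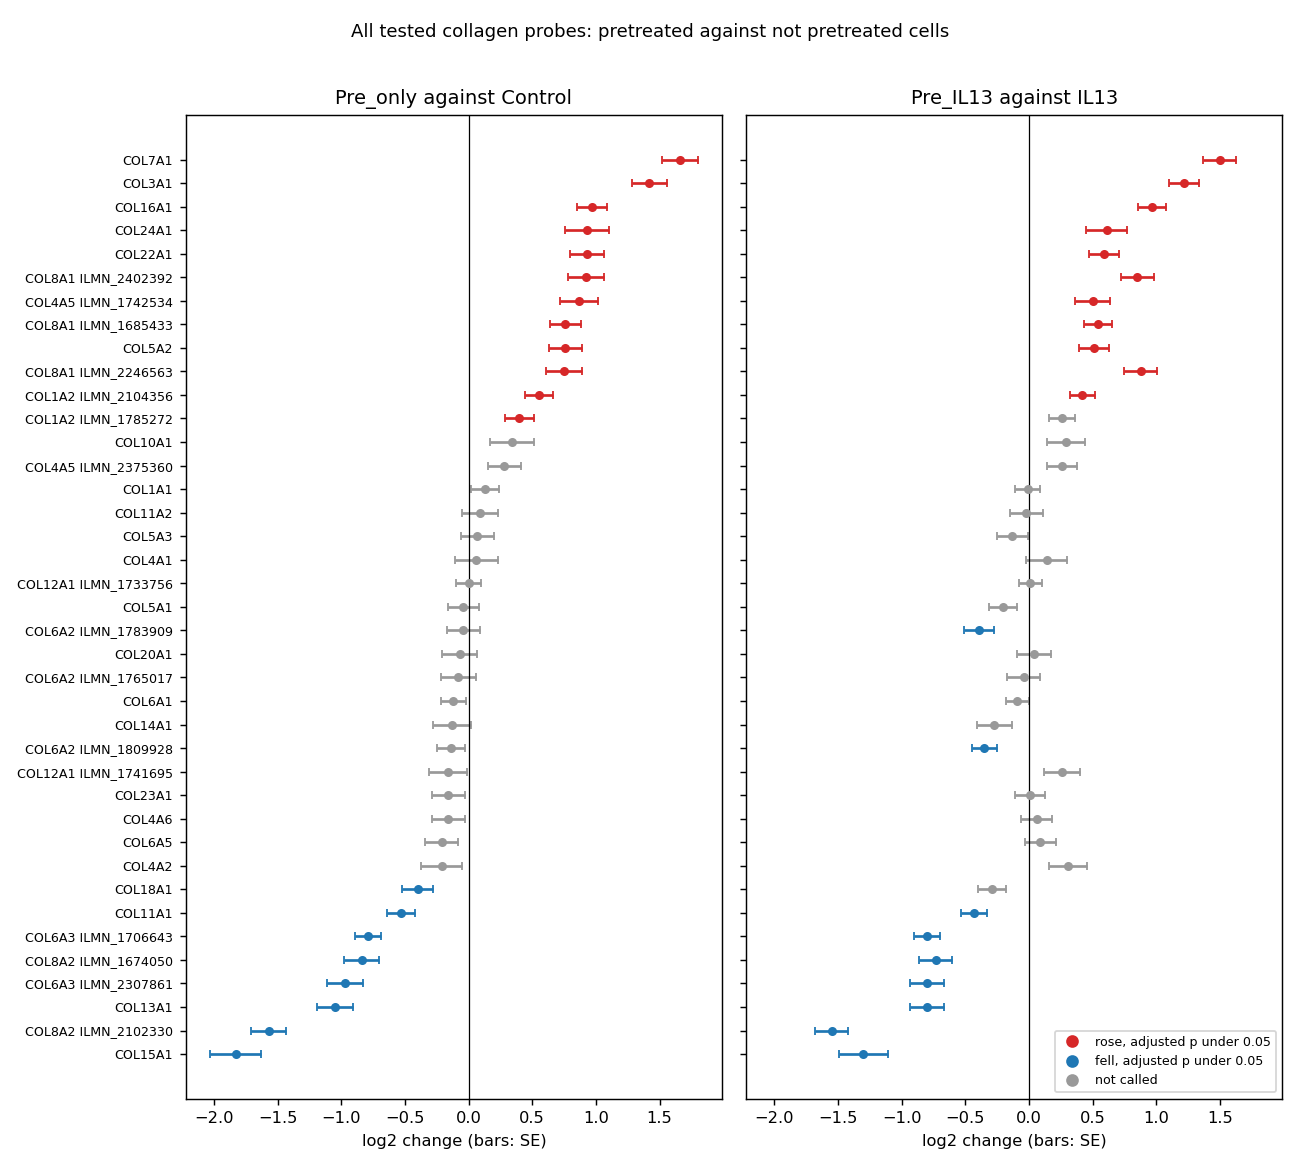
Log2 change (x axis, bars are SE) of each of the 39 collagen probes (y axis, ordered by the left panel) in Pre_only against Control and in Pre_IL13 against IL13. Red probes rose and blue probes fell at an adjusted p under 0.05; 12 rose and 8 fell on the left, 11 rose and 9 fell on the right.

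The comparison of Pre_IL13 with IL13 repeats the question in cells that all received IL-13 and shares no array with the comparison above. In it 11 collagen probes rose and 9 fell, where 10.5% of all probes rose, 10.9% fell and 21.4% were called. Of the 20 probes called in Pre_only against Control, 18 (90%) were called here with the same sign, and they are 18 of the 20 (90%) called here. Over all tested probes the shared calls of the same sign were 3185, which is 70.9% of the calls in Pre_only against Control and 61.8% of those in Pre_IL13 against IL13. COL22A1 and COL11A1 are among the 18, and 16 remain among the probes detected on both sides. COL18A1 (-0.40 ± 0.12, adjusted p = 0.015) and the COL1A2 probe ILMN_1785272 (0.40 ± 0.11, adjusted p = 0.00637) were called only without IL-13. COL6A2 probes ILMN_1783909 (-0.39 ± 0.12, adjusted p = 0.0144) and ILMN_1809928 (-0.35 ± 0.10, adjusted p = 0.0123) were called only with it, which is not a test of the difference between both comparisons. The COL6A2 calls were lost without the IL13 array P6-A (ILMN_1783909) or P6-B (ILMN_1809928), and both were lost with median scaling in place of quantile normalisation. Median scaling moved the median of all probes by 0.111 in this comparison, and with it 13 collagen probes rose and 5 fell.

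COL3A1 encodes the only chain of type III collagen, which forms thin fibrils with type I. In pretreated cells COL3A1 stood at 12.43, 12.22, 12.20 and 12.41 in Pre_Ab_IL13, 11.98, 12.28, 12.00 and 12.20 in Pre_Ab_only, 11.99, 12.43, 11.98 and 11.93 in Pre_IL13 and 12.48, 12.17 and 12.01 in Pre_only. Without pretreatment COL3A1 stood at 11.35, 10.86, 10.63 and 10.61 in IL13 and 10.95, 11.15, 10.58 and 10.32 in Control. Every pretreated array lay above every array without pretreatment. Its level was higher in Pre_only than in Control by 2.68-fold (log2 change 1.42 ± 0.14, SE, adjusted p = 7.98e-10), and higher in Pre_IL13 than in IL13 by 2.33-fold (1.22 ± 0.12, adjusted p = 3.22e-09).

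COL5A2 encodes a chain of type V collagen, which sits inside type I fibrils and is known to set their width. In pretreated cells COL5A2 stood at 11.30, 11.25, 11.37 and 11.54 in Pre_Ab_IL13, 10.99, 11.14, 10.84 and 11.09 in Pre_Ab_only, 10.89, 11.21, 10.94 and 11.12 in Pre_IL13 and 11.05, 10.81 and 10.95 in Pre_only. Without pretreatment COL5A2 stood at 10.95, 10.65, 10.21 and 10.31 in IL13 and 10.23, 10.48, 10.00 and 9.92 in Control. Pre_only and Control did not overlap, and the IL13 array P6-A reached the level of the pretreated arrays. The rise was 1.69-fold in Pre_only against Control (0.76 ± 0.13, adjusted p = 4.15e-05) and 1.42-fold in Pre_IL13 against IL13 (0.51 ± 0.12, adjusted p = 0.00178). The gene lies next to COL3A1 on chromosome 2 in the RefSeq annotation. COL5A1, the partner chain in type V, was not called in Pre_only against Control (-0.04 ± 0.12): it ran from 10.71 to 11.30 over the pretreated arrays and from 10.68 to 11.61 over the others.

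Type I collagen, the main fibril of interstitial matrix, is built from COL1A1 and COL1A2 chains. The COL1A2 probe ILMN_2104356 ran from 12.86 to 13.05 in Pre_only and from 12.14 to 12.73 in Control and rose by 0.55 ± 0.11 (adjusted p = 0.000188), and by 0.42 ± 0.10 in Pre_IL13 against IL13 (adjusted p = 0.00191). COL1A1 ran from 12.83 to 13.09 in Pre_only and from 12.62 to 12.95 in Control, with a log2 change of 0.13 ± 0.11 (adjusted p = 0.49). Both COL1A2 calls were lost with median scaling in Pre_only against Control.

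COL24A1, a fibril-forming collagen known from developing bone in the mouse, was among the rises. In pretreated cells COL24A1 stood at 5.44, 5.56, 5.56 and 5.72 in Pre_Ab_IL13, 5.34, 5.75, 5.62 and 5.58 in Pre_Ab_only, 5.60, 5.45, 5.41 and 5.43 in Pre_IL13 and 5.30, 5.64 and 5.77 in Pre_only. Without pretreatment COL24A1 stood at 5.57, 4.68, 4.64 and 4.55 in IL13 and 4.58, 4.79, 4.37 and 4.77 in Control. Only the IL13 array P6-A stood among the pretreated arrays, so IL13 and Pre_IL13 overlapped. COL24A1 was detected on all pretreated arrays, on 3 of 4 IL13 and on 2 of 4 Control arrays. The log2 change was 0.93 ± 0.17 in Pre_only against Control (adjusted p = 0.000126) and 0.61 ± 0.16 in Pre_IL13 against IL13 (adjusted p = 0.00476). With no array set below the lowest level of a detected probe, the changes were 0.87 and 0.59, and their size is limited by detection. COL11A1, known for cartilage fibrils, was detected on 0 of the pretreated arrays, on 4 of 4 IL13 arrays and on 3 of 4 Control arrays, and was lower in Pre_only than in Control by at least 1.16-fold (adjusted p = 0.000557). Because COL11A1 passed the detection rule only through arrays without pretreatment, it had to be lower with it. This bound sets the undetected arrays at the lowest level of any detected probe, which was 4.58 to 4.71 on an array.

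The type VIII chains moved apart. COL8A1 and COL8A2 encode the chains of type VIII collagen, a short-chain network of vessel walls and of the membrane under the corneal endothelium. In pretreated cells the COL8A1 probe ILMN_1685433 stood at 12.69, 12.85, 12.64 and 12.59 in Pre_Ab_IL13, 12.78, 12.65, 11.71 and 12.18 in Pre_Ab_only, 12.60, 12.50, 12.53 and 12.48 in Pre_IL13 and 12.81, 12.64 and 12.33 in Pre_only. Without pretreatment COL8A1 stood at 12.24, 12.25, 11.70 and 11.78 in IL13 and 11.83, 12.02, 11.76 and 11.45 in Control. All but the Pre_Ab_only arrays of passage 8 lay above every array without pretreatment. The 3 COL8A1 probes rose by 0.75 to 0.92 in Pre_only against Control (ILMN_2402392 0.92 ± 0.14, adjusted p = 6.09e-06; ILMN_1685433 0.76 ± 0.12, adjusted p = 1.62e-05) and by 0.54 to 0.88 in Pre_IL13 against IL13. The other 2 probes ran from 5.76 to 7.05 over pretreated arrays against 5.20 to 6.0 (ILMN_2246563) and from 9.54 to 11.10 against 9.16 to 10.01 (ILMN_2402392).

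In pretreated cells the COL8A2 probe ILMN_2102330 stood at 5.80, 5.85, 5.41 and 5.47 in Pre_Ab_IL13, 5.82, 5.73, 5.56 and 5.38 in Pre_Ab_only, 5.90, 5.63, 5.38 and 5.0 in Pre_IL13 and 5.84, 5.92 and 5.41 in Pre_only. Without pretreatment COL8A2 stood at 7.59, 7.22, 6.60 and 6.73 in IL13 and 7.45, 7.66, 6.78 and 6.92 in Control. No pretreated array reached the lowest array without pretreatment. COL8A2 fell 2.97-fold in Pre_only against Control by this probe (-1.57 ± 0.14, adjusted p = 9.46e-11) and 2.94-fold in Pre_IL13 against IL13 (-1.55 ± 0.13, adjusted p = 1.66e-11). The second COL8A2 probe, ILMN_1674050, ran from 5.69 to 6.18 over pretreated arrays against 6.10 to 7.14 and fell by 0.84 ± 0.14 in Pre_only against Control (adjusted p = 4.02e-05); the fall was 0.36 within passage 8 and 1.18 within passage 6.

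COL4A5 encodes a type IV chain of the basement membranes of the kidney glomerulus and lung alveolus. In pretreated cells the COL4A5 probe ILMN_1742534 stood at 7.93, 7.87, 7.65 and 7.94 in Pre_Ab_IL13, 8.09, 8.14, 7.65 and 7.81 in Pre_Ab_only, 7.77, 7.67, 7.63 and 7.77 in Pre_IL13 and 7.90, 8.05 and 7.42 in Pre_only. Without pretreatment COL4A5 stood at 7.14, 7.16, 7.12 and 7.41 in IL13 and 6.63, 6.78, 7.21 and 7.02 in Control. All pretreated arrays lay above both groups without pretreatment, by the least for the Pre_only array P8-B. The log2 change in Pre_only against Control was 0.87 ± 0.15 (adjusted p = 2.98e-05), and 0.50 ± 0.14 in Pre_IL13 against IL13 (adjusted p = 0.0061). Within passage 8, where Pre_only has 1 array, the change in Pre_only against Control was 0.31. The call in Pre_IL13 against IL13 was lost with experiments A and B averaged and without both IL13 arrays of passage 6. A second COL4A5 probe, ILMN_2375360, detected on 10 arrays, changed by 0.28 ± 0.13 and 0.26 ± 0.12 in these comparisons and was not called. It was detected on 9 of the 15 pretreated arrays and 1 of the 8 others. It thus passed the detection rule through the pretreated groups, which favours a rise. COL4A1 (0.06 ± 0.17) and COL4A2 (-0.21 ± 0.16), the chains of the common type IV network, were not called in Pre_only against Control and are taken up below with the passages.

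**Figure D2:**
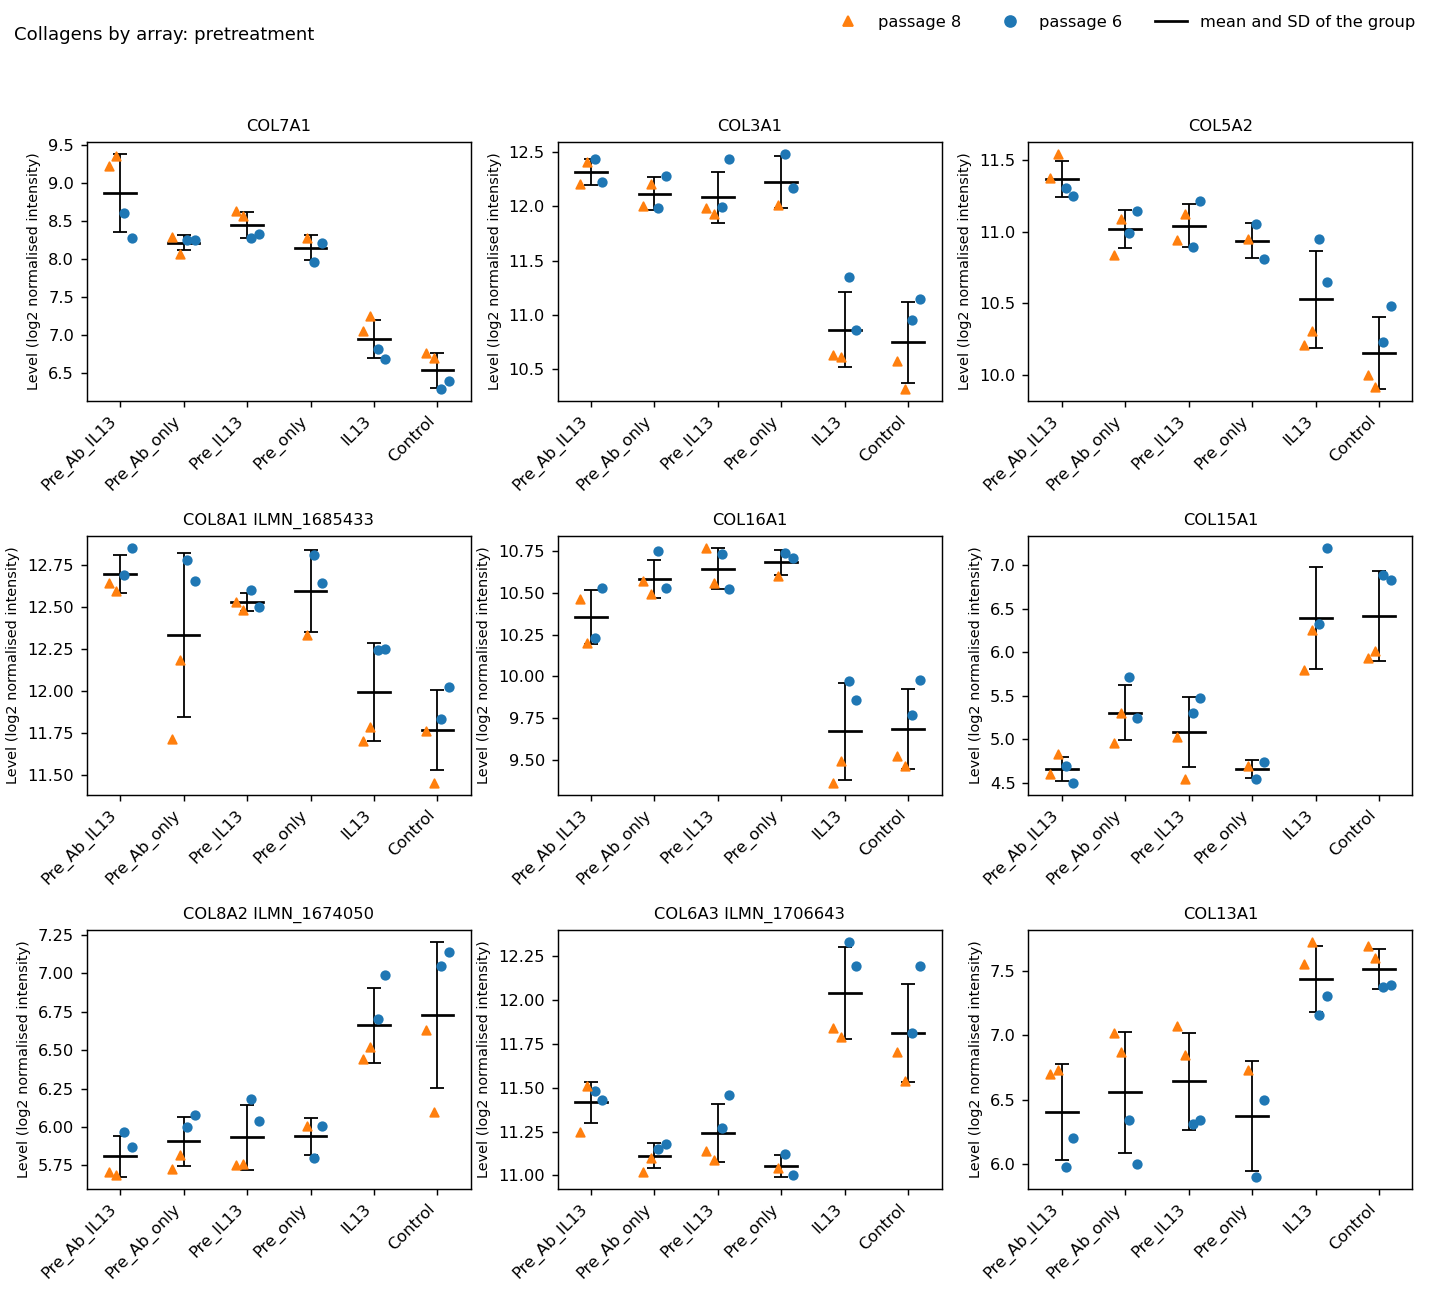
Level (y axis, log2 normalised intensity) of 9 collagen probes on each array, by group (x axis); triangles are passage 8, circles passage 6, lines the group mean with its SD. COL7A1, COL3A1, COL5A2, COL8A1 and COL16A1 stand higher in the pretreated groups on the left, and COL15A1, COL8A2, COL6A3 and COL13A1 lower.

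COL7A1, the only gene of type VII collagen, which anchors basement membranes to the tissue beneath, had the largest rise of the family. In pretreated cells COL7A1 stood at 8.61, 8.27, 9.23 and 9.36 in Pre_Ab_IL13, 8.25, 8.25, 8.29 and 8.07 in Pre_Ab_only, 8.28, 8.33, 8.63 and 8.56 in Pre_IL13 and 7.96, 8.21 and 8.27 in Pre_only. Without pretreatment COL7A1 stood at 6.82, 6.68, 7.05 and 7.25 in IL13 and 6.29, 6.40, 6.76 and 6.70 in Control. The pretreated arrays did not overlap the others. COL7A1 was 3.17-fold higher in Pre_only than in Control (1.66 ± 0.14, adjusted p = 5.39e-11; 1.54 in passage 8 and 1.74 in passage 6) and 2.83-fold higher in Pre_IL13 than in IL13 (1.5 ± 0.13, adjusted p = 7.94e-11). Its promoter is shown because it had the largest rise and was also called in Pre_Ab_IL13 against Pre_Ab_only. COL7A1 was not called in IL13 against Control (log2 change 0.41) or in Pre_IL13 against Pre_only (0.25). The 250 bases before its start, chr3:48595330-48595579 on the minus strand of GRCh38.p14 in RefSeq's promoter table, read as follows, with capitals for matches of the STAT motif TTCNNNGAA and of the kappaB consensus, which share bases in the longer capital run.
COL7A1: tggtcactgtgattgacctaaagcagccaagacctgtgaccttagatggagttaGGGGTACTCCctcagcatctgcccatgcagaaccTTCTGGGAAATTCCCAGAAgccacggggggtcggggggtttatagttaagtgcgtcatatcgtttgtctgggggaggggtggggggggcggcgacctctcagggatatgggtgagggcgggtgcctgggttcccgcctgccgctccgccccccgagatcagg

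COL15A1 had the largest fall of the family in Pre_only against Control, and COL8A2 that in Pre_IL13 against IL13. Type XV collagen is a multiplexin that links basement membranes to neighbouring fibrils. In pretreated cells COL15A1 stood at 4.70, 4.50, 4.60 and 4.83 in Pre_Ab_IL13, 5.72, 5.24, 4.96 and 5.30 in Pre_Ab_only, 5.30, 5.47, 5.03 and 4.55 in Pre_IL13 and 4.54, 4.74 and 4.69 in Pre_only. Without pretreatment COL15A1 stood at 6.32, 7.20, 5.80 and 6.26 in IL13 and 6.89, 6.83, 5.93 and 6.02 in Control. It was detected on 11 of the 15 pretreated arrays, among them 2 of 3 Pre_only and 3 of 4 Pre_IL13 arrays, and on all 8 others, and every pretreated array was lower than the lowest of those 8. COL15A1 fell in Pre_only against Control (-1.83 ± 0.20, adjusted p = 2.1e-08) and in Pre_IL13 against IL13 (-1.30 ± 0.19, adjusted p = 2.5e-06). The Pre_only levels lie at the lowest level of a detected probe, and with no array set below that level the falls were 3.3-fold and 2.45-fold, the first of which is limited by detection. The 250 bases before its start, chr9:98943657-98943906 on the plus strand of GRCh38.p14 (RefSeq), hold 1 match of the kappaB consensus, in capitals, and 0 of either STAT motif.
COL15A1: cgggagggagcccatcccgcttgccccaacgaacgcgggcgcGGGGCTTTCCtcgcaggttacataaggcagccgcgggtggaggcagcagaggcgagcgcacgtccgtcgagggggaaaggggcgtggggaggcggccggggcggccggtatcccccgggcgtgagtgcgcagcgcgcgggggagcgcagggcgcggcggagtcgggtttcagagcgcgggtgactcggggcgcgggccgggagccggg

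The FACIT collagen COL16A1, which associates with fibrils and with integrins, rose. In pretreated cells COL16A1 stood at 10.23, 10.53, 10.46 and 10.20 in Pre_Ab_IL13, 10.75, 10.53, 10.57 and 10.49 in Pre_Ab_only, 10.73, 10.52, 10.77 and 10.56 in Pre_IL13 and 10.74, 10.71 and 10.60 in Pre_only. Without pretreatment COL16A1 stood at 9.97, 9.86, 9.36 and 9.49 in IL13 and 9.77, 9.98, 9.52 and 9.46 in Control. All pretreated arrays were higher than all others. The rise was 1.96-fold in both comparisons (0.97 ± 0.12, adjusted p = 8.59e-08, in Pre_only against Control, and 0.97 ± 0.11, adjusted p = 1.47e-08, in Pre_IL13 against IL13).

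COL22A1, a FACIT collagen of tissue junctions such as that of muscle and tendon, is near the detection limit. In pretreated cells COL22A1 stood at 4.58, 4.90, 4.94 and 4.59 in Pre_Ab_IL13, 4.82, 4.49, 4.91 and 4.56 in Pre_Ab_only, 4.80, 4.70, 4.96 and 5.16 in Pre_IL13 and 5.23, 5.17 and 5.09 in Pre_only. Without pretreatment COL22A1 stood at 4.46, 4.32, 4.22 and 4.24 in IL13 and 4.18, 4.30, 4.23 and 4.23 in Control. It was detected on 3 of 3 Pre_only and 4 of 4 Pre_IL13 arrays, on 2 of 4 arrays in each antibody group, and on 0 of the 8 arrays without pretreatment. It was higher in Pre_only than in Control by at least 1.44-fold (adjusted p = 7.29e-07) and in Pre_IL13 than in IL13 by at least 1.18-fold (adjusted p = 0.000204). Because COL22A1 passed the detection rule only through the pretreated groups, it had to be higher there.

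COL13A1, a transmembrane collagen of cell adhesion sites, fell. In pretreated cells COL13A1 stood at 5.98, 6.20, 6.70 and 6.73 in Pre_Ab_IL13, 6.34, 6.0, 7.02 and 6.87 in Pre_Ab_only, 6.31, 6.34, 7.07 and 6.85 in Pre_IL13 and 5.90, 6.50 and 6.73 in Pre_only. Without pretreatment COL13A1 stood at 7.16, 7.31, 7.56 and 7.73 in IL13 and 7.38, 7.39, 7.70 and 7.60 in Control. The highest pretreated array, Pre_IL13 P8-A, lay below the lowest IL13 array. COL13A1 was lower by 1.05 ± 0.14 in log2 in Pre_only against Control (-1.05, adjusted p = 4.68e-07) and by 0.80 in Pre_IL13 against IL13 (-0.80 ± 0.13, adjusted p = 1.17e-05). COL18A1, the multiplexin from which endostatin is cut, fell in Pre_only against Control (-0.40 ± 0.12), a call that was lost without the Control array P6-B or the Pre_only array P6-B.

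COL6A3 encodes the longest chain of type VI collagen, which forms beaded filaments around cells together with COL6A1 and COL6A2. In pretreated cells the COL6A3 probe ILMN_1706643 stood at 11.48, 11.43, 11.25 and 11.51 in Pre_Ab_IL13, 11.15, 11.18, 11.02 and 11.10 in Pre_Ab_only, 11.27, 11.46, 11.14 and 11.09 in Pre_IL13 and 11.12, 11 and 11.04 in Pre_only. Without pretreatment COL6A3 stood at 12.33, 12.19, 11.84 and 11.79 in IL13 and 11.81, 12.19, 11.70 and 11.54 in Control. No pretreated array reached the lowest of the others. COL6A3 fell by 0.79 on the log2 scale in Pre_only against Control (-0.79 ± 0.10, adjusted p = 4.87e-07) and by 0.80 in Pre_IL13 against IL13 (-0.80 ± 0.10, adjusted p = 1.01e-07). The second probe, ILMN_2307861, ran from 9.63 to 10.58 over pretreated arrays against 10.29 to 11.35, which overlap, and fell by 0.97 ± 0.14 (-0.97, adjusted p = 4.7e-06) in Pre_only against Control. COL6A1 (-0.12 ± 0.10) and the 3 COL6A2 probes (-0.14 to -0.04) were not called there.

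Whether chains that assemble into the same collagen type changed alike was tested on the difference of their levels within each array. The test, added after the levels had been seen, took the 9 pairs of chains of 1 type whose probe was detected on all arrays and used two-sided exact permutations within passage (163350 arrangements), with p-values adjusted over 18 tests. Each chain was measured by its probe with the highest mean level. For COL8A2 this is ILMN_1674050 (mean level 6.17), and ILMN_2102330 (6.13), whose array values are listed above, was not used. COL8A2 relative to COL8A1 (ILMN_1685433) was lower by 1.45 on the log2 scale in the 15 pretreated arrays than in the 8 others (change -1.45, adjusted p = 3.67e-05). COL6A3 relative to COL6A1 was lower (-0.80, adjusted p = 3.67e-05), and COL5A2 relative to COL5A1 was higher (0.84, adjusted p = 3.67e-05). In these 3 pairs the pretreated arrays did not overlap the others, and the unadjusted p of 6.12e-06 is the smallest the arrangements can give. COL1A2 relative to COL1A1 was higher by 0.39 (adjusted p = 8.26e-05) with overlapping arrays, COL6A3 relative to COL6A2 lower (-0.60, adjusted p = 0.000176) and COL6A2 relative to COL6A1 lower (-0.20, adjusted p = 0.0201). The COL6A2 probe used, ILMN_1783909, changed with pretreatment by -0.28 in passage 6 and 0.07 in passage 8, and COL6A1 by 0.01 and 0.13. ILMN_1809928 of COL6A2, not used in the test, changed by -0.16 and -0.23. In type IV, COL4A5 was higher relative to COL4A1 (0.67, adjusted p = 0.00335) and to COL4A2 (0.60, adjusted p = 0.00394), with overlapping arrays. Both of these shifts lie in passage 6, where pretreatment changed COL4A5 by 1.00, COL4A1 by -0.36 and COL4A2 by -0.03. In passage 8 the changes were alike, 0.47, 0.54 and 0.39. The neighbouring chains COL4A2 and COL4A1 did not pass this test (0.08, adjusted p = 0.608).

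Genes whose products make, cross-link, bind or break down collagen were described from lists of related genes, 1 probe for each. With 1 probe for each of all 12994 genes, 11.2% rose, 11.9% fell and 23.1% were called in Pre_only against Control. Among 21 tested genes of intracellular collagen processing, 9 rose and 0 fell in Pre_only against Control, with a median log2 change of 0.29 against -0.01 over all probes. The prolyl hydroxylases that stabilise the triple helix were among them: P4HA2 (1.55 ± 0.11, adjusted p = 7.59e-13), P4HA1 (0.99 ± 0.13) and P4HA3 (0.81 ± 0.12). PLOD2, the lysyl hydroxylase that prepares telopeptides for cross-linking, rose by 1.34 ± 0.14 (adjusted p = 6.15e-09). In Pre_IL13 against IL13, 10 of the 21 rose and 0 fell, where 13.1% of all genes rose, 12.8% fell and 26% were called.

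Outside the cell the order was different. Of 10 genes of extracellular maturation, 2 rose and 5 fell in Pre_only against Control (median -0.49). PCOLCE2 (-1.79 ± 0.14, adjusted p = 9.12e-12) and PCOLCE (-0.96 ± 0.14), which enhance removal of the C-terminal propeptide, fell, while BMP1, the protease they help, rose by 0.51 ± 0.13 (adjusted p = 0.00535). TGM2, a transglutaminase that cross-links matrix proteins, fell (-1.65 ± 0.18, adjusted p = 1.24e-08), as did the lysyl oxidases LOXL4 (-0.74 ± 0.11) and LOXL1 (-0.64 ± 0.15), whereas LOXL3 rose by 0.69 ± 0.13. LOX changed by 0.02 ± 0.12 and was not called. In Pre_IL13 against IL13 2 of the 10 rose and 5 fell (median -0.25), where 26% of all genes were called. LOX fell there (-0.46 ± 0.11, adjusted p = 0.00339), and LOXL1 was not called (-0.05 ± 0.14). PCOLCE2, PCOLCE, TGM2 and LOXL4 fell and BMP1 and LOXL3 rose there too. Among 19 partners of fibrils 3 rose and 4 fell in Pre_only against Control (median -0.01). ABI3BP (1.27 ± 0.23) and the proteoglycan LUM (0.84 ± 0.12) were higher. FN1, fibronectin (-1.15 ± 0.13), and the proteoglycan BGN (-0.80 ± 0.12) were lower. In Pre_IL13 against IL13 3 rose and 5 fell, with ABI3BP and LUM again among the rises and FN1 and BGN among the falls.

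Of 12 collagen receptor genes 1 rose and 2 fell in Pre_only against Control (median 0.06). These 3 of 12 are near the share of all genes called, 23.1%. The genes called encode alpha subunits that pair with ITGB1 to bind collagen: ITGA1 rose by 2.09 ± 0.21 (adjusted p = 3.84e-09), while ITGA11 (-1.55 ± 0.16, adjusted p = 7.4e-09) and ITGA10 (-1.14 ± 0.12, adjusted p = 6.15e-09) fell. Among 12 genes of collagen breakdown 2 rose and 1 fell (median 0.10), again near that share: MMP3, stromelysin, rose by 4.01 ± 0.20 (adjusted p = 1.39e-16) and FAP by 0.60 ± 0.14, and the inhibitor TIMP3 fell (-0.70 ± 0.15). The interstitial collagenase MMP1 changed by 0.48 ± 0.21 (adjusted p = 0.118). In Pre_IL13 against IL13 the 3 receptor genes were called with the same signs. Among the 12 breakdown genes 1 rose there (MMP3) and 3 fell (TIMP3, TIMP2 and CTSK), where 26% of all genes were called. FAP was not called there (0.13 ± 0.13, adjusted p = 0.535). All 5 smooth muscle markers fell in Pre_only against Control, among them CNN1 (-2.22 ± 0.19) and MYH11 (-2.07 ± 0.15), and CD14 (1.19 ± 0.12) and CD68 (1.10 ± 0.16) rose. Epithelial KRT19 fell (-2.34 ± 0.14, adjusted p = 1.24e-14), as did SOX9 (-0.48 ± 0.16) and endothelial VWF (-0.54 ± 0.14), while endothelial TEK rose by 0.42 ± 0.12. Their part in the collagen changes was not tested.

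**Figure D3:**
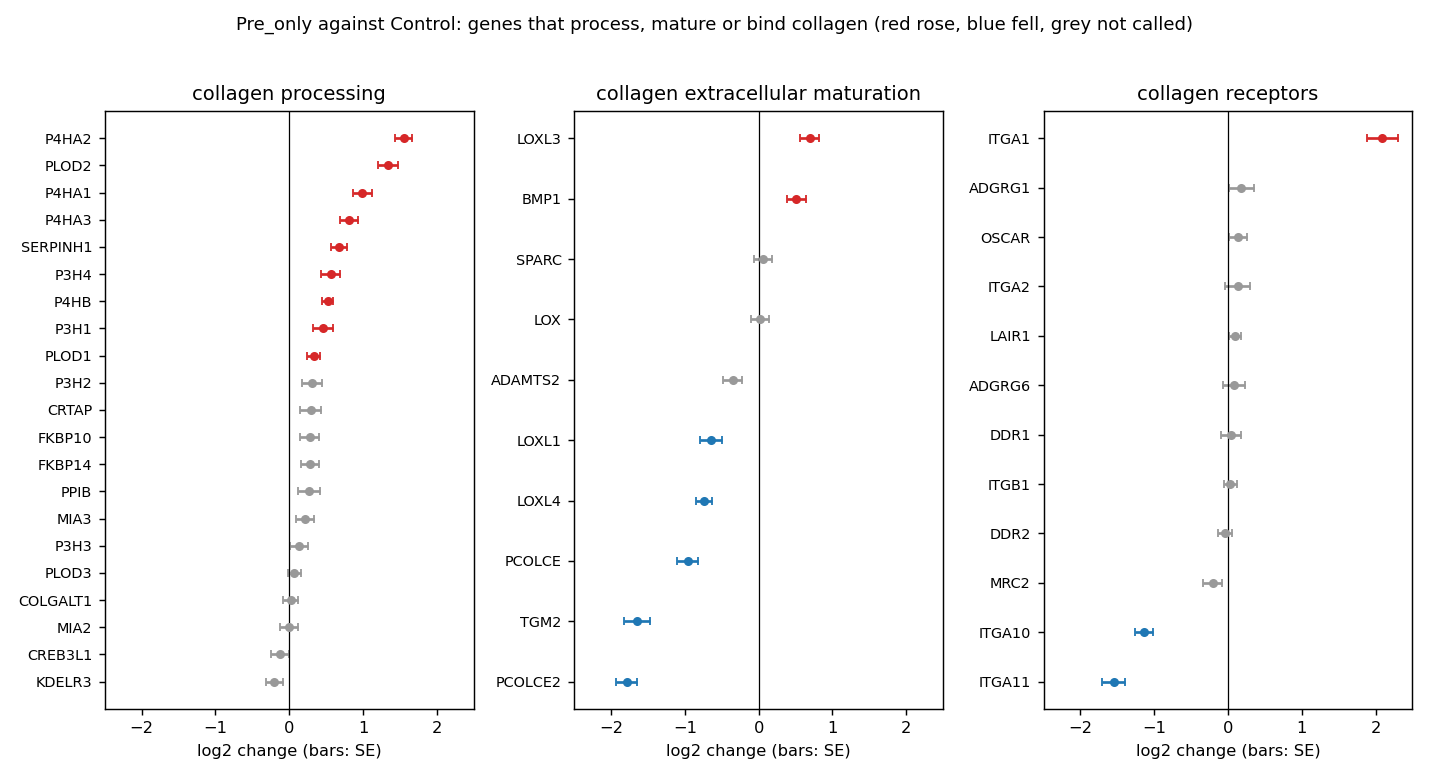
Log2 change (x axis, bars are SE) in Pre_only against Control of genes that process collagen in the cell, mature it outside, or bind it at the cell surface (y axis). Red genes rose and blue genes fell at an adjusted p under 0.05: 9 rose and 0 fell in processing, 2 rose and 5 fell in maturation, and 1 rose and 2 fell among receptors.

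IL-13 alone moved fewer collagen probes than pretreatment, and those called in IL13 against Control were 3 of the 7 type VI probes. Comparing IL13 with Control, 3 of 39 collagen probes rose and 0 fell, where 0.78% of all probes rose, 0.419% fell and 1.2% were called. The 3 probes are COL6A1 and 2 of COL6A2, which are neighbouring genes on chromosome 21 in the RefSeq annotation. In cells given IL-13 COL6A1 stood at 12.09, 11.97, 12.04 and 12.11 in Pre_Ab_IL13, 11.55, 11.84, 11.61 and 11.35 in Pre_IL13 and 11.76, 11.76, 11.59 and 11.61 in IL13. Without IL-13 it stood at 11.48, 11.45, 11.20 and 11.19 in Pre_Ab_only, 11.03, 11.14 and 11.26 in Pre_only and 11.33, 11.38, 11.14 and 11.15 in Control. In each of these 3 backgrounds every array with IL-13 was higher than every array without it. COL6A1 was 1.35-fold higher in IL13 than in Control (0.43 ± 0.09, adjusted p = 0.00652; 0.45 in passage 8 and 0.41 in passage 6). With median scaling the change was 0.30 and was no longer called.

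In cells given IL-13 the COL6A2 probe ILMN_1783909 stood at 11.02, 10.99, 11.04 and 11 in Pre_Ab_IL13, 10.63, 10.70, 10.65 and 10.52 in Pre_IL13 and 11.45, 11.20, 10.70 and 10.73 in IL13. Without IL-13 it stood at 10.58, 10.38, 10.24 and 10.04 in Pre_Ab_only, 10.12, 10.41 and 10.58 in Pre_only and 10.44, 10.47, 10.27 and 10.37 in Control. The arrays with IL-13 were higher in the antibody background and in cells without pretreatment, and the Pre_IL13 and Pre_only arrays overlapped. COL6A2 was 1.55-fold higher in IL13 than in Control by this probe (0.63 ± 0.12, adjusted p = 0.00171; 0.40 in passage 8 and 0.87 in passage 6). By ILMN_1809928 it was 1.32-fold higher (0.40 ± 0.10, adjusted p = 0.0421), from 10.05 to 10.50 in IL13 and 9.82 to 9.95 in Control, a call lost in 19 of 22 alternatives, among them the ones without each Control array, IL13 P6-B, P8-A or P8-B. The third COL6A2 probe, ILMN_1765017, detected on 19 arrays, changed by -0.01 ± 0.13. None of the 3 type VI calls held without both IL13 arrays of passage 6, where COL6A1 changed by 0.41 and ILMN_1783909 of COL6A2 by 0.36.

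The 250 bases before the start of COL6A2, chr21:46097862-46098111 on the plus strand of GRCh38.p14 (RefSeq), are shown because COL6A2 had the largest rise of the family in IL13 against Control. They hold 0 matches of the STAT6 motif, which is TTC, 4 bases of any kind and GAA and is bound by STAT6, through which IL-13 is known to signal, and 1 match of the kappaB consensus, in capitals.
COL6A2: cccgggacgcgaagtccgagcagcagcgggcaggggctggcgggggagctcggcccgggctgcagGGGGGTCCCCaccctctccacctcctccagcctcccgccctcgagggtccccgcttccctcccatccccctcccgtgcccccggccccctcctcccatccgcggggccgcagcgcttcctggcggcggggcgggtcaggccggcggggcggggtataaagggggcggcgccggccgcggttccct

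After pretreatment without antibody, IL-13 gave 0 calls: in Pre_IL13 against Pre_only 0 of 39 collagen probes passed (0.0083% of all probes), 6 had an unadjusted p under 0.05, and the lowest adjusted p was 0.122 for COL6A1 (0.46 ± 0.10). COL6A1 was called there without the Pre_only array P8-B. With the antibody, in Pre_Ab_IL13 against Pre_Ab_only, 4 probes rose and 0 fell (0.768% and 0.676% of all probes; 1.44% called). COL6A1 rose 1.65-fold (0.72 ± 0.09, adjusted p = 2.88e-06), COL6A2 1.63-fold by ILMN_1783909 (0.70 ± 0.12, adjusted p = 0.00038) and 1.47-fold by ILMN_1809928 (0.56 ± 0.10, adjusted p = 0.00125). COL7A1 rose 1.57-fold (0.65 ± 0.13, adjusted p = 0.00328), its groups overlapped, and the rise was 1.11 within passage 8 and 0.19 within passage 6. This COL7A1 call was lost with median scaling, without the passage term, with experiments A and B averaged, and in passage 6 alone.

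In Pre_Ab_IL13 against Pre_IL13, which asks what the antibody changes in pretreated cells given IL-13, COL6A1 was the 1 collagen probe called (0.398% of all probes rose, 0.56% were called): it was higher by 1.38-fold (0.46 ± 0.09, adjusted p = 0.00415), and its arrays did not overlap. The antibody without IL-13 gave 0 collagen calls in Pre_Ab_only against Pre_only (0% of all probes; 7 collagen probes had an unadjusted p under 0.05, lowest adjusted p = 0.672). The differences between IL-13 responses were tested themselves. With against without pretreatment 0 collagen probes were called by limma (0.149% of all probes; 2 with an unadjusted p under 0.05), and with antibody and pretreatment against neither 0 (0.0498%; 3 with an unadjusted p under 0.05). With against without antibody in pretreated cells 0 were called (0.137%; 6 with an unadjusted p under 0.05, lowest adjusted p = 0.116). A lower collagen response to IL-13 after pretreatment, or its return with the antibody, was thus not detectable by these tests, although the calls differ.

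The mean of the 3 IL-13 responses (with antibody, after pretreatment alone, and without pretreatment) was added after the data had been seen and reuses the arrays above. By it 7 probes of 6 collagen genes rose and 0 fell (1.28% of all probes rose, 1.31% fell, 2.59% were called). COL6A1 had a mean response of 0.54 ± 0.05 (adjusted p = 2.09e-08) and COL6A2 of 0.54 ± 0.07 and 0.38 ± 0.06. COL7A1 (0.44 ± 0.08, adjusted p = 0.000508), COL12A1 (0.33 ± 0.05, adjusted p = 0.000241), COL5A2 (0.28 ± 0.07, adjusted p = 0.0205) and COL6A3 (ILMN_1706643, 0.25 ± 0.06, adjusted p = 0.0086) were the others. COL12A1, a FACIT collagen of load-bearing tissue, changed alike in the 3 backgrounds. Its probe ILMN_1733756 changed by 0.31 in Pre_Ab_IL13 against Pre_Ab_only, 0.34 in Pre_IL13 against Pre_only and 0.33 in IL13 against Control, with no single call. The COL12A1 call for the mean response was lost with median scaling, without the passage term, with experiments A and B averaged, and in passage 8 alone. In cells given IL-13 this COL12A1 probe stood at 11.19, 11.15, 10.54 and 10.58 in Pre_Ab_IL13, 10.83, 10.81, 10.47 and 10.42 in Pre_IL13 and 11.11, 10.93, 10.27 and 10.17 in IL13. Without IL-13 it stood at 10.71, 10.83, 10.37 and 10.30 in Pre_Ab_only, 10.42, 10.49 and 10.22 in Pre_only and 10.60, 10.54, 9.99 and 10.05 in Control. Within each passage the COL12A1 arrays with IL-13 were above those without it in every background. A second COL12A1 probe, ILMN_1741695, was detected on 14 arrays, 0 of 4 in IL13 and 4 of 4 in Control, and was not called between them.

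**Figure D4:**
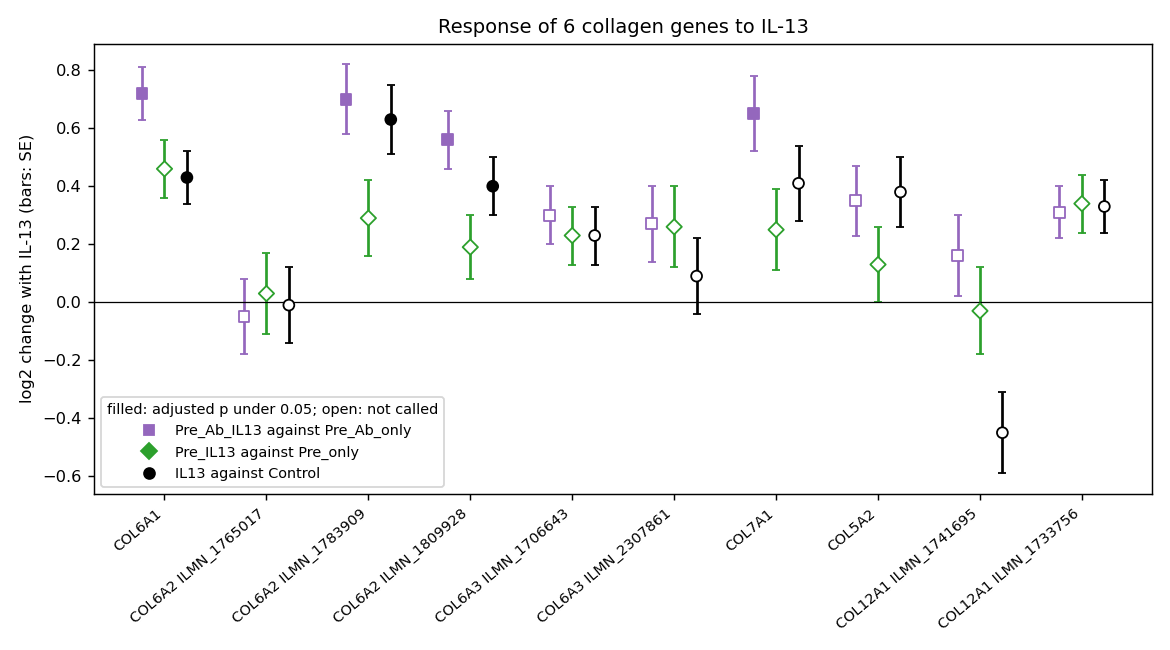
Log2 change with IL-13 (y axis, bars are SE) of the probes of 6 collagen genes (x axis) in pretreated cells with antibody (squares), pretreated cells (diamonds) and cells without pretreatment (circles). Filled symbols passed an adjusted p under 0.05. COL6A1 changed by 0.72, 0.46 and 0.43 in these backgrounds, and COL12A1 (ILMN_1733756) by 0.31, 0.34 and 0.33. The other COL12A1 probe was not detected on any IL13 array.

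The type VI chains were also compared with each other under IL-13, by exact permutations within passage and background (23328 arrangements). The pairs COL6A3 relative to COL6A1 (-0.29, adjusted p = 0.00103) and COL6A3 relative to COL6A2 (-0.29, adjusted p = 0.00694) were lower with IL-13, COL4A5 relative to COL4A1 was higher (0.17, adjusted p = 0.0433), whereas COL6A2 relative to COL6A1 changed by 0.00 (adjusted p = 0.988). Of the related lists, extracellular maturation was the one with calls in IL13 against Control (1.62% of all genes called) and in Pre_Ab_IL13 against Pre_Ab_only (1.96%): LOX (0.60 ± 0.11, adjusted p = 0.00265) and LOXL3 (0.54 ± 0.12, adjusted p = 0.0135) rose in IL13 against Control, 2 of 10 genes. In Pre_Ab_IL13 against Pre_Ab_only TGM2 (1.13 ± 0.17, adjusted p = 5.82e-05), LOXL3 (0.57 ± 0.12) and LOX (0.46 ± 0.11) rose. TGM2 had fallen with pretreatment. Collagen processing, fibril partners, receptors and breakdown had 0 calls in both comparisons.

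The largest differences between passages were those of COL4A1 and COL4A2, 2 of the 5 type IV probes; the other 3 were not called. Comparing passage 8 with passage 6 over all groups, 4 collagen probes rose and 17 fell, where 13.2% of all probes rose, 12.2% fell and 25.4% were called, and the median log2 change was -0.16 for the family against 0.00 for all probes. Because the 2 passages were run on separate beadchips, an effect of the passage and one of the beadchip cannot be told apart. With median scaling 4 rose and 9 fell. COL4A2 ran from 6.26 to 7.14 over the 11 arrays of passage 8 and from 7.27 to 8.18 over the 12 of passage 6, without overlap, and was 2.00-fold lower in passage 8 (-1.0 ± 0.09, adjusted p = 1.22e-09). COL4A1 ran from 10.64 to 11.55 and from 11.58 to 12.27, also without overlap (-0.86 ± 0.09, adjusted p = 4.84e-08). COL14A1, a FACIT collagen, was lower by 0.64 in log2 (-0.64 ± 0.08, adjusted p = 1.05e-06), and COL12A1 by 0.52 (-0.52 ± 0.05). All 5 type VIII probes fell, the COL8A1 probes by 0.36 to 0.63 (ILMN_2402392 -0.63 ± 0.08, adjusted p = 5.09e-07) and the COL8A2 probes by 0.33 and 0.53. COL13A1 (0.54 ± 0.08), COL7A1 (0.35 ± 0.08) and COL18A1 (0.28 ± 0.07) were higher in passage 8. COL10A1 was the other of the 4 called; it was detected on 7 arrays of passage 8 and 1 of passage 6, so the detection rule fixed its direction.

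COL4A1 and COL4A2 lie head to head on chromosome 13 and are transcribed away from each other. The 126 bases between both starts, chr13:110307158-110307283 of GRCh38.p14 (RefSeq, plus strand, in which COL4A2 is transcribed), are shown because both genes had the largest passage differences of the family. Capitals mark the 1 match of CCAAT.
COL4A1-COL4A2 interval: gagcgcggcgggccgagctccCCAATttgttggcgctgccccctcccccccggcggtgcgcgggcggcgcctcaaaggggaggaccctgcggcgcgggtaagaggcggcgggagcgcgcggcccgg

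In COL4A1 the effect of pretreatment itself differed between the passages. In passage 8 the 7 pretreated arrays ran from 11.13 to 11.55 against 10.64 to 10.84 on the 4 others, higher by 0.54. In passage 6 the 8 pretreated arrays ran from 11.58 to 12.01 against 12.06 to 12.27 on the 4 others, lower by 0.36 (-0.36). Neither pair overlapped, and the difference of both effects was 0.90 ± 0.11 (adjusted p = 1.38e-06). Such a difference was called for 4 collagen probes in the positive direction and 1 in the negative (2.81% and 2.44% of all probes; 5.25% called). The calls do not show the whole shift: the median difference was 0.27 over the 39 collagen probes and -0.01 over all probes. It was above 0 for 33 collagen probes and below 0 for 6, and 19 had an unadjusted p under 0.05. The positive ones besides COL4A1 are COL5A2 (0.48 ± 0.12, adjusted p = 0.0156) and COL1A1 (0.39 ± 0.09, adjusted p = 0.00892; 0.32 in passage 8 and -0.08 in passage 6), and COL10A1, detected on all 7 pretreated arrays of passage 8 and on 1 other array, for which the rule had fixed this direction. The negative one is COL4A5 (-0.53 ± 0.13, adjusted p = 0.011; 0.47 in passage 8 and 1.00 in passage 6). For COL4A2 it was 0.42 ± 0.14 and not called (adjusted p = 0.0818). Without the IL13 array P6-B the count of such probes was 11.

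**Figure D5:**
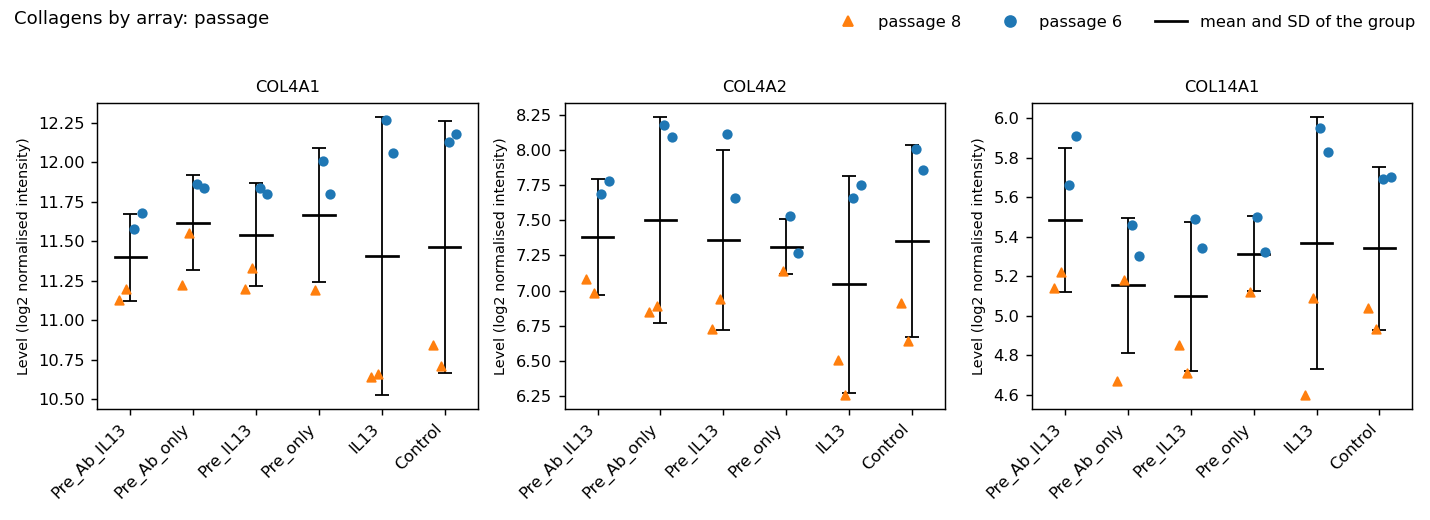
Level (y axis, log2 normalised intensity) of COL4A1, COL4A2 and COL14A1 on each array, by group (x axis); triangles are passage 8, circles passage 6, lines the group mean with its SD. All triangles lie below all circles in each panel, and for COL4A1 the gap is wider in IL13 and Control than in the pretreated groups.

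Promoter windows of the RefSeq table were found for 20 of the 30 collagen genes, and the 250 bases before each start were searched on both strands, as in all 35116 windows of the table. The STAT6 motif was in 1 of the 20, that of COL10A1, and in 5.38% of all windows. The STAT motif TTCNNNGAA was in 1, that of COL7A1, and in 6.57% of all. The AP-1 motif TGANTCA was in 0 of the 20 and in 6.57% of all. The kappaB consensus was in 3 (COL7A1, COL15A1 and COL6A2) and in 5.21% of all, and CCAAT was in 6 and in 32% of all. COL7A1, which rose with pretreatment, and COL15A1, which fell, both hold a kappaB match in these windows. COL16A1, which also rose, and COL8A2, which also fell, hold 0 matches of the kappaB consensus and 0 of either STAT motif. A match describes the letters and does not show that a factor binds there.

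The remaining members were called in none of the comparisons between treatments. COL5A3, COL11A2, COL20A1, COL23A1, COL4A6 and COL6A5, each detected on 3 to 10 arrays, changed by -0.21 to 0.09 in Pre_only against Control and by -0.13 to 0.09 in Pre_IL13 against IL13. COL10A1, the network collagen of hypertrophic cartilage, was detected on 8 arrays, 2 in each of the pretreated groups and 0 in IL13 and Control, so it passed the detection rule only through pretreated cells. COL14A1 changed by -0.13 ± 0.15 in Pre_only against Control and -0.27 ± 0.14 in Pre_IL13 against IL13.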

How the data were processed

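Per the labels, RNA from CCL-75 lung fibroblasts was amplified from 300 ng with biotin labelling and hybridised to Illumina bead arrays. The authors deposited mean bead intensity for 47323 probes on 23 arrays, exported with GenomeStudio 2011.1 per the submitters' processing notes. Beside each intensity stand, per the file headers, its detection p-value, the number of beads and their standard error (a signal never below 0). The authors' deposited table of 31390 probes is on a log2 scale, between 6.35 and 14.2, and its columns follow the log2 intensity of the arrays with correlations of 0.997 or more. Its normalisation is not given in the sources used here, and it served as an alternative. Other deposited columns, such as identifiers, were used only to join tables. The number of arrays limits the precision of every value.

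Intensities were background-corrected and quantile normalised with neqc in limma 3.58.1 (R 4.3.3; offset 16, negative controls inferred from detection p-values); 14 probes that lack a value on at least 1 array were not used. Probes with a detection p under 0.05 on 3 or more arrays were tested, 24096 in all, of which 17541 have 1 gene symbol. The deposited annotation gives 1 symbol for 21332 probes and several for 7, and 21309 were matched by gene ID to RefSeq (GRCh38.p14). Each probe was fitted with terms for group and passage over all 23 arrays (lmFit, eBayes with an intensity trend, 16 residual degrees of freedom), and p-values were adjusted over all tested probes within a comparison by the Benjamini-Hochberg method. The difference of the pretreatment effect between passages came from a fit with a term for each group in each passage (11 residual degrees of freedom), averaged over the pretreated groups and over the others. The test was checked on simulated data. Error after a log2 change is the SE. Gene list members were described with 1 probe each, the one with the highest mean level. Promoter searches and permutation tests used Python 3.11.15 with numpy 2.4.6.

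Values on every array are given for collagen genes that were called with at least a 1.5-fold change in Pre_only against Control, Pre_IL13 against IL13 or IL13 against Control, or called in another IL-13 or antibody comparison, by 1 probe each where several passed. The members, lists and comparisons were chosen with earlier results of these data known. The highest correlation of levels between 2 arrays was 0.9949, and no array was taken as a copy of another. Alternatives changed the background correction, normalisation, source of values, detection filter, probes per gene, passage term, replicate unit, arrays included, array weights and minimum fold.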

Additional observations from a re-analysis of the deposited data

Results flagged for a closer look

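In 95 sets of 4 arrays tested for 1 value standing apart (Dixon's test at 95%), 6 did so, and chance alone gives about 1 in 20. COL24A1 was at 5.57 on the IL13 array P6-A, against 4.55, 4.64 and 4.68 on the other IL13 arrays. COL3A1 was at 12.43 on the Pre_IL13 array P6-B, against 11.93, 11.98 and 11.99. COL4A5 (ILMN_1742534) was at 7.41 on the IL13 array P8-B, against 7.12, 7.14 and 7.16. COL6A2 (ILMN_1809928) was at 10.05 on the Pre_Ab_IL13 array P8-B, against 10.27, 10.27 and 10.30. COL6A3 (ILMN_2307861) was at 11.35 on the IL13 array P6-B, against 10.62, 10.68 and 10.69, and at 9.98 on the Pre_Ab_IL13 array P8-A, against 10.50, 10.53 and 10.58. Of the 6, 2 lie on the IL13 arrays of passage 6, which have the least even beads; the part of bead evenness in these values was not tested.

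The effect of pretreatment differed between passage 8 and passage 6 in 5 collagen probes, by the limma test of the difference itself. The differences were 0.90 for COL4A1, 0.67 for COL10A1, 0.48 for COL5A2, 0.39 for COL1A1 and -0.53 for COL4A5. COL10A1 passed the detection rule through the 7 pretreated arrays of passage 8 and 1 other array, which fixed its direction, and its value is a difference against arrays on which it was not detected. Passage and beadchip cannot be told apart.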

How the results depend on the processing

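Over 62 results for named probes, 1597 values under the alternatives were computed: 1476 stayed on their side of the threshold, 121 kept the direction without passing it, and 0 changed sign. The counts of called collagen probes in Pre_only against Control stayed within 16 to 21, apart from the setting with 1 probe per gene. That setting tests fewer probes and gave 15, the number of collagen genes called in the main fit. In Pre_IL13 against IL13 the counts ran from 13 to 22, and in passage 6 alone 14 were called (6 rose and 8 fell). With a change of at least 1.5-fold required, 13 were called in Pre_IL13 against IL13, 1 in IL13 against Control, 0 in Pre_Ab_IL13 against Pre_IL13, 0 for the mean of the 3 IL-13 responses, 4 between passages and 2 for the difference of pretreatment effects between passages. With median scaling the counts were 0 in IL13 against Control, 1 in Pre_Ab_IL13 against Pre_Ab_only, 0 in Pre_Ab_IL13 against Pre_IL13, 2 for the mean IL-13 response, 13 between passages and 2 for the difference of pretreatment effects (2 positive and 0 negative); the cause was not tested. Over all probes, Pre_only against Control gave 4490 calls, 2666 with median scaling and 2153 with at least 1.5-fold, and IL13 against Control gave 289, 104 and 169. With experiments A and B averaged, which leaves fewer samples, they were 0 in IL13 against Control, 2 in Pre_Ab_IL13 against Pre_Ab_only, 0 in Pre_Ab_IL13 against Pre_IL13 and 4 for the mean response. In passage 6 alone they were 1 in IL13 against Control, 0 in Pre_Ab_IL13 against Pre_Ab_only, 0 in Pre_Ab_IL13 against Pre_IL13 and 3 for the mean response. In passage 8 alone they were 1, 7 and 3 in the same comparisons, and 1 for the difference of IL-13 responses with and without antibody. With only the groups compared in the fit they were 8 in Pre_Ab_IL13 against Pre_Ab_only, 2 in Pre_Ab_IL13 against Pre_IL13 and 1 for that difference. With array weights they were 7 and 2 in these comparisons. Without a passage term the mean response gave 4, and without both IL13 arrays of passage 6 IL13 against Control gave 0. Leaving out 1 array at a time gave 19 to 21 in Pre_only against Control and in Pre_IL13 against IL13, 2 to 3 in IL13 against Control, 0 to 1 in Pre_IL13 against Pre_only (1 without Pre_only P8-B), 4 to 5 in Pre_Ab_IL13 against Pre_Ab_only, and 1 to 2 in Pre_Ab_IL13 against Pre_IL13 (2 without Pre_Ab_IL13 P6-B). It gave 6 to 8 for the mean response, 19 to 24 between passages, 4 to 11 for the difference of pretreatment effects (11 without IL13 P6-B) and 0 for the other comparisons; that difference could not be fitted without Pre_only P8-B. After group and passage, arrays of different groups but the same passage and experiment had a median residual correlation of -0.116 over 55 pairs. For the same passage and the other experiment it was -0.0889, so arrays of 1 experiment were not more alike across groups. Because only different groups were set against each other, this does not test whether A and B of a group are technical replicates. With passage and experiment as a replicate block the counts were 20, 21, 3 and 4 in Pre_only against Control, Pre_IL13 against IL13, IL13 against Control and Pre_Ab_IL13 against Pre_Ab_only, and 7 for the mean response, and the counts of the other treatment comparisons were those without the block. Probes near the detection limit, such as COL22A1 and COL11A1, give bounds only.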
